A study of Mus musculus with 12 samples.

Results

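Purine receptors and ectonucleotidases are the proteins with which a cell senses extracellular nucleotides and adenosine and breaks them down. The 10 genes described here were taken by their symbols from the 53801 genes of the count table, and all 10 were measured deeply enough to be tested. They are the nucleotide receptors P2ry12, P2ry13 and P2ry6, the ATP-gated channels P2rx4 and P2rx7, the adenosine receptors Adora1, Adora2a and Adora3, and the ectonucleotidases Entpd1 and Nt5e. Injured cells release ATP and other nucleotides, and microglia extend their processes along the ADP signal through P2RY12. UDP, which is also released by damaged cells, acts on P2RY6 and triggers uptake of debris by microglia. ENTPD1 (CD39) cuts ATP and ADP to AMP, NT5E (CD73) turns AMP into adenosine, and the adenosine receptors read the product.

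RNA was sequenced from cells that had been sorted with magnetic beads against the P2RY12 protein 72 h after a transient occlusion of the middle cerebral artery of 60 min. The 4 groups were cKO IL, WT IL, cKO CL and WT CL, with 3 libraries each, where IL is the ischemic (ipsilateral) hemisphere and CL the non-lesion (contralateral) hemisphere of mice with a stroke. The cKO mice carried Cx3cr1-CreER+/- with a floxed gene and the WT mice Cx3cr1-CreER+/- with that gene unfloxed, so both genotypes held 1 allele of the tamoxifen-inducible Cre, which is expressed in microglia and other Cx3cr1-positive myeloid cells. Both genotypes had received tamoxifen at 75 mg/kg a day for 5 days from postnatal day 30 to 40, at least 30 days before the occlusion, and mice of both sexes were used at 2 to 3 months of age. No sham-operated library is part of the comparisons, and CL tissue comes from a brain with a stroke. P2RY12 was the sorting antigen, so cells without that protein at the surface were selected against in all 4 groups.

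Levels are given as CPM, a gene's reads relative to its library's total after TMM scaling, and the 3 libraries of a group are called A, B and C in the order of the numbers in their column names. Totals ran from 43961276 to 47256174 reads in cKO IL, 18425180 to 25166928 in WT IL, 9743603 to 20349883 in cKO CL and 2091512 to 12647526 in WT CL, so the groups differ in depth. The WT CL library C, the smallest, lay far from every group mean (root mean square log2 difference at least 3.03), the WT IL library A lay nearer to the cKO CL mean (1.37) than to its own (1.55), and the WT CL library A lay nearer to the WT IL mean (2.05) than to its own (2.51). The WT CL library B lay nearer to cKO CL (1.19, own group 2.42), the WT IL library C nearer to cKO IL (1.26, own group 1.99) and the cKO IL library A nearer to WT IL (0.953, own group 1.08). All directions between genotypes rest on the labels. The 9 microglial markers summed to 3970 to 9980 CPM in every library, and none of them was at 0 in any. The values of a group are given in the order A, B and C throughout.

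Per length of exon, P2ry12 was the most abundant of the 10 genes, with a mean over the 12 libraries of 99.1 CPM per kb. Entpd1 followed at 47.2 CPM per kb, P2ry6 at 37.4, P2ry13 at 26.8, P2rx7 at 20.5 and P2rx4 at 15.5. The other 4 genes were at least 5 times lower on this scale, with Adora2a and Adora3 at 2.59 CPM per kb each, Nt5e at 2.23 and Adora1 at 1.65. The order of the group means was not the same in every group: P2ry6 ranked above Entpd1 in cKO IL (73.3 against 54.0 CPM per kb), and below it in WT IL (40.9 against 58.9). It was also below Entpd1 on the CL side of both genotypes (19.9 against 47.5 in cKO and 15.4 against 28.5 in WT). P2ry12, which was used to select the cells, had the highest group mean in each group. Single libraries went the other way. In the WT IL library A, P2ry12 had 84.9 CPM over 2.546 kb of exon and Entpd1 361 CPM over 5.58 kb. In the WT IL library C, P2ry6 had 168 CPM over 2.887 kb and ranked above Entpd1, at 204 CPM.

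**Figure D1:**
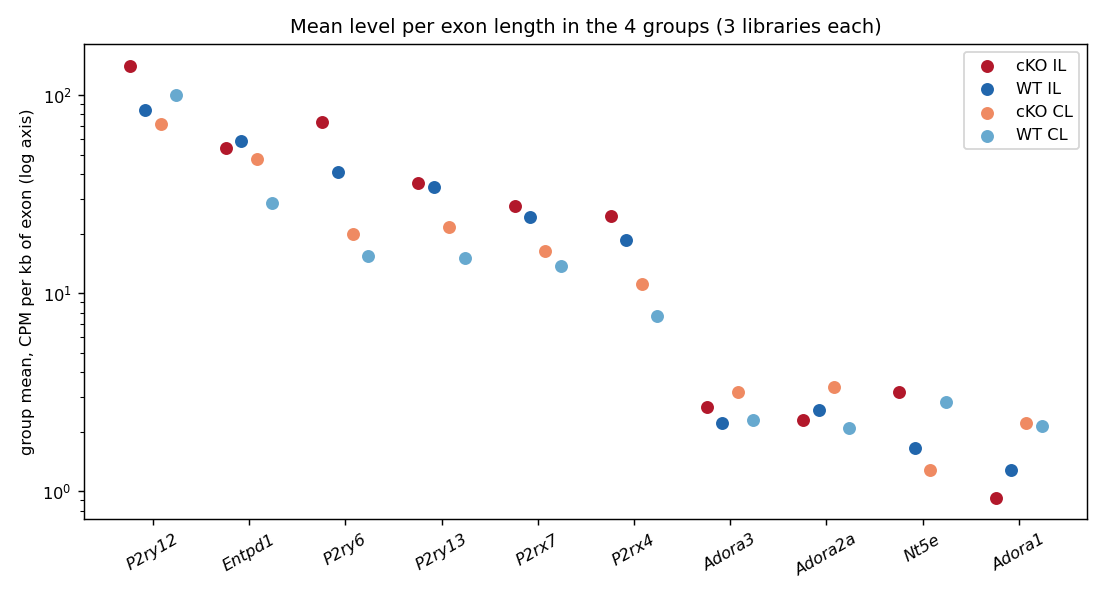
Mean level of the 10 genes per kb of exon (CPM per kb, log axis) in cKO IL, WT IL, cKO CL and WT CL, each point the mean of 3 libraries. The 6 genes from P2ry12 (99.1 CPM per kb over all libraries) to P2rx4 (15.5) stand well above the 3 adenosine receptors and Nt5e (1.65 to 2.59), and P2ry6 has 73.3 CPM per kb in cKO IL, 40.9 in WT IL, 19.9 in cKO CL, and 15.4 for WT CL.

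P2ry6, the receptor for UDP (chromosome 7, 100937630 to 100974649, minus strand, GRCm38), was the only 1 of the 10 genes called between hemispheres. It stood at 278.4, 182 and 175 CPM in cKO IL, against 33.4, 68.3 and 70.9 CPM in cKO CL. Every cKO IL library lay above every cKO CL library, and the lowest cKO IL value was more than double the highest cKO CL value. P2ry6 rose in cKO IL relative to cKO CL by 1.88 on the log2 scale (standard error 0.49), a fold of 3.68 with a 95% interval of 1.83 to 7.39 and an adjusted p of 0.0364 (edgeR's quasi-likelihood test, two-sided, Benjamini-Hochberg over 35674 genes). Of the 10 genes 1 was thus called higher and 0 lower, where 2.94% of all tested genes were called higher and 0.513% lower, and 1 of the 10 had an unadjusted p under 0.05, where 24.0% of all genes had.

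In WT mice, P2ry6 stood at 64.7, 122 and 168 CPM in IL, against 51.4, 34.2 and 48.1 CPM in CL. Here too the groups did not overlap, but the lowest IL value, of library A, lay close to the highest CL value. The log2 fold change was 1.41 (standard error 0.48, 95% interval 0.41 to 2.40), with an unadjusted p of 0.0077 and an adjusted p of 0.141 (edgeR), which did not pass. The difference between the genotypes in this stroke response was 0.47 (standard error 0.67, 95% interval -0.91 to 1.85, adjusted p = 1.0 from edgeR's interaction test), so a larger response in cKO was not shown. Without the WT IL library A and the WT CL library C, a setting chosen after the data were seen, P2ry6 was called in WT as well, at 1.96 (adjusted p = 0.0218, edgeR). In that fit 1865 of 39748 genes were called higher. Across the 4 groups, P2ry6 averaged 212 ± 57.9 CPM in cKO IL, 118 ± 51.8 in WT IL, 57.6 ± 20.9 in cKO CL, and 44.6 ± 9.14 for WT CL (SD, n = 3 each), and it was the only 1 of the 10 genes that differed somewhere among them (edgeR, adjusted p = 0.0138), where 6.72% of all genes were called and 22.0% had an unadjusted p under 0.05.

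The P2ry6 call in cKO was near the threshold. It was kept in 9 of 21 alternatives, DESeq2 among them (1.69, adjusted p = 0.0106), and lost in 12, with adjusted p-values of 0.0502 to 0.187, among them every fit that left out a cKO IL or a cKO CL library and the fit with a block on the column number, which each genotype has once in IL and once in CL (1.91, adjusted p = 0.0694, edgeR). Where the call was kept, the adjusted p ran from 0.00017 to 0.0195 (edgeR). The lowest was that of the 6 cKO libraries alone, where 11159 of 32414 genes were called. The log2 fold change was positive in all 21 and lay between 1.02, with libraries scaled to their total counts, and 2.27, without a filter on low counts. The median log2 fold change of all tested genes depended on the scaling and on the genes kept. It was -1.33 with TMM, -1.56 with RLE and -2.26 with total counts, -0.39 with libraries thinned to the smallest total, and -0.038 among genes of at least 10 reads in every library. P2ry6 lay above that median by 3.21, 3.25 and 3.28 on the log2 scale with the 3 scalings, but by 1.88 with thinning and 1.48 with the 10-read filter.

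**Figure D2:**
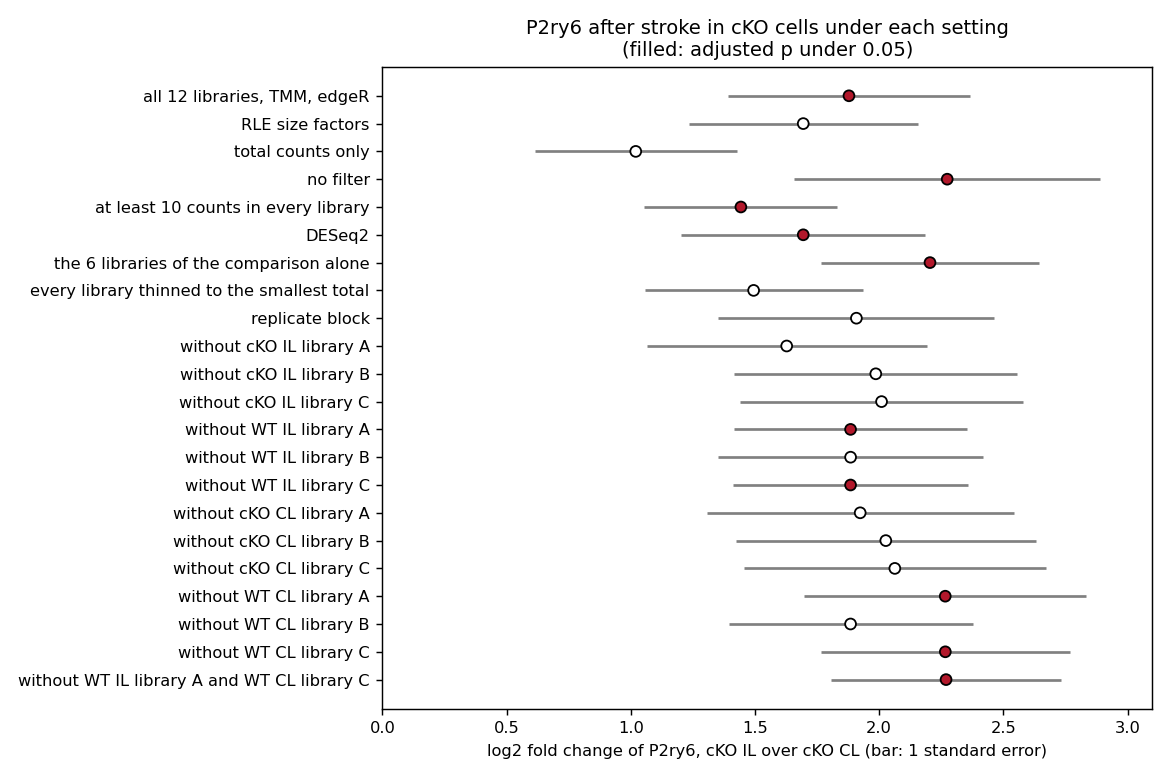
Log2 fold change of P2ry6 in cKO IL over cKO CL (bars: 1 standard error) in the fit of all 12 libraries and in 21 alternatives, filled where the adjusted p is under 0.05. All values lie above 0, between 1.02 and 2.27, and the call is lost in 12 of the alternatives.

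Some genes of infiltrating monocytes and of border-associated macrophages were also called higher in cKO IL than in cKO CL, as was 1 of the 9 microglial markers. For 3 of the microglial markers every cKO IL library lay above every cKO CL library and for 2 below, against 18.5% and 35.9% of all tested genes. Without Fn1, the other 8 monocyte markers summed to 2727, 1522 and 749 CPM in cKO IL and 109, 405 and 1332 CPM in WT IL, against 104, 128 and 128 CPM in cKO CL and 88.6, 64.8 and 131 CPM in WT CL. These 8 were Ly6c2, Ccr2, Vcan, F13a1, Plac8, Chil3, Arg1 and Ms4a4c. The paper uses Chil3 as a marker of restorative microglia, so the sum need not come from monocytes alone. With Fn1, which is also made by other cells, the sums ran from 7131 to 18264 CPM in cKO IL, 560 to 7885 in WT IL, 251 to 640 in cKO CL and 138 to 6065 in WT CL. Of the 9 monocyte markers, 6 were called higher in cKO IL than in cKO CL and 2 in WT IL than in WT CL (edgeR), and 4 of 9 were at 0 in a WT CL library. Of all tested genes, 2.94% were called higher in the cKO comparison and 0.538% in the WT comparison. The 6 markers of border-associated macrophages summed to 1279, 943 and 480 CPM in cKO IL and 196, 336 and 734 CPM in WT IL, against 180, 290.4 and 200.02 CPM in cKO CL and 311, 97.6 and 184 CPM in WT CL. Of these 6, 2 were called higher in cKO IL than in cKO CL and 0 in WT IL than in WT CL, and 1 was at 0 in a WT CL library. Only 4 of the 6 had a positive log2 fold change in cKO IL over cKO CL, where 31.6% of all tested genes had. For 1 of the 6 every cKO IL library lay below every cKO CL library, as for 35.9% of all tested genes. In cKO IL and in WT IL the order of the 3 libraries by P2ry6 was their order by either sum. The marker F13a1 is in both lists, so the sums are not separate measures. In bulk samples, more cells of a type and more RNA per cell cannot be told apart, and the part of monocytes or border-associated macrophages in the P2ry6 values was not tested.

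**Figure D3:**
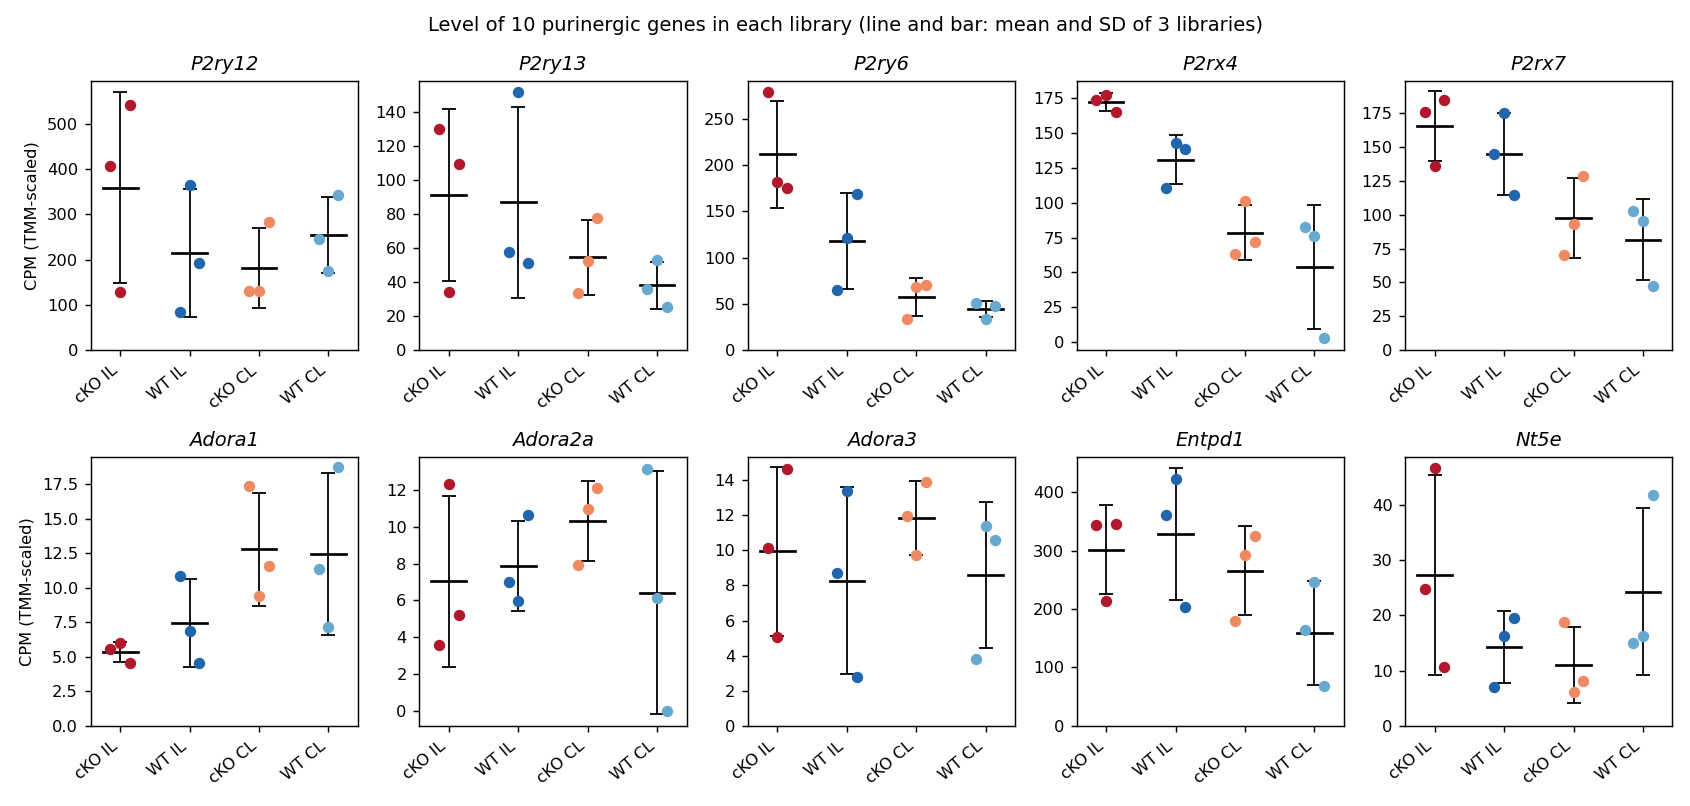
Level of each of the 10 genes in every library (CPM, linear axis), with groups in the order cKO IL, WT IL, cKO CL and WT CL, and the mean and SD of 3 libraries as line and bar. P2ry6, P2rx4 and P2rx7 have all IL libraries above all CL libraries of the same genotype, whereas P2ry12 spreads from 84.9 to 541 CPM with overlap of all groups.

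P2ry12 and P2ry13 are neighbouring genes for ADP receptors that couple to inhibitory G proteins, on chromosome 3 (59216272 to 59262871 and 59207892 to 59210882, minus strand, GRCm38). P2ry12 stood at 408, 129 and 541 CPM in cKO IL and 84.9, 365 and 192 CPM in WT IL, against 131, 131 and 284 CPM in cKO CL and 245, 175 and 343 CPM in WT CL. Its highest and its lowest value of the series both came from IL libraries, and all groups overlapped. The log2 fold change of IL over CL was 0.98 in cKO (95% interval -0.18 to 2.14) and -0.25 in WT (-1.40 to 0.90), and their difference was 1.23 (standard error 0.79, unadjusted p = 0.132, edgeR). The adjusted p-values of P2ry12 were 0.264 in cKO, 0.850 in WT and 1.0 for the difference. The sign in WT turned to 0.60 without the WT IL library A and the WT CL library C, and in cKO the gene passed the test without those 2 libraries (1.36, adjusted p = 0.0442, edgeR) and with the 6 cKO libraries fitted alone (1.29, adjusted p = 0.0371, edgeR). Of all genes, 6042 of 39748 and 11159 of 32414 passed in these 2 cKO fits.

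P2ry13 stood at 130, 34.5 and 110 CPM in cKO IL and 57.7, 152 and 51.2 CPM in WT IL, against 33.6, 52.5 and 77.8 CPM in cKO CL and 35.9, 53.1 and 25.5 CPM in WT CL. The IL libraries reached higher in both genotypes, but in each genotype at least 1 IL library lay within the CL range. IL over CL gave 0.74 in cKO (standard error 0.56, adjusted p = 0.366) and 1.19 in WT (standard error 0.56, unadjusted p = 0.0463, adjusted p = 0.266), neither of which passed edgeR's test. Both genes lie within Med12l, a Mediator subunit gene on the opposite strand, with 9 and 0 shared exonic bases, and Med12l itself had 92 to 3158 reads a library. The strand setting of the counting is not given in the sources used here, so a small part of the P2ry12 reads cannot be assigned with certainty.

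The ATP-gated channels P2rx4 and P2rx7 lie next to each other on chromosome 5 (122707544 to 122729738 and 122643911 to 122691432, plus strand, GRCm38). P2RX4 opens at low ATP and P2RX7 only at high ATP, as in injured tissue, where it drives release of interleukin 1. P2rx4 stood at 174, 177 and 165 CPM in cKO IL and 111, 143 and 139 CPM in WT IL, against 63.3, 101 and 71.7 CPM in cKO CL and 82.9, 75.9 and 2.93 CPM in WT CL. The last value rests on 10 reads of the WT CL library C. All IL libraries lay above all CL libraries of their genotype, and all cKO IL libraries lay above all WT IL libraries. The log2 fold change of IL over CL was 1.13 in cKO (standard error 0.65, adjusted p = 0.266) and 1.27 in WT (standard error 0.65, adjusted p = 0.302), and neither passed (edgeR). Without the WT CL library C, P2rx4 passed in the cKO comparison at 1.51 (adjusted p = 0.0191, edgeR). That comparison does not contain the library but shares with it the gene filter, the scaling and the estimate of the spread. With the 6 cKO libraries alone P2rx4 passed at 1.45 (adjusted p = 0.0053, edgeR). Of all genes, 5085 of 39716 passed in the cKO comparison without the WT CL library C, and 11159 of 32414 with the 6 cKO libraries alone.

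P2rx7 stood at 175, 136 and 185 CPM in cKO IL and 144, 175 and 114 CPM in WT IL, against 70.3, 93.1 and 129 CPM in cKO CL and 102, 94.9 and 47.5 CPM in WT CL. Again every IL library lay above every CL library of its genotype, by a narrow gap. IL over CL gave 0.77 in cKO (standard error 0.45, adjusted p = 0.273) and 0.82 in WT (standard error 0.45, adjusted p = 0.332), which did not pass (edgeR). With total counts in place of TMM the cKO value turned to -0.10. With the 6 cKO libraries alone P2rx7 passed at 1.08 (adjusted p = 0.0361, edgeR), where 11159 of 32414 genes passed.

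To set the neighbouring receptor genes side by side, the 250 bases before the start of each pair are given, 5′ to 3′ on the gene's strand, from RefSeq on GRCm38.p6. Capitals mark matches to GGAAGT (the core of ETS factors such as PU.1), to TGANTCA (AP-1) or to a pair of GAAA with 2 bases between them (IRF), each searched on both strands, with no overlap of matches in these 4 windows. The windows are chr3:59262986-59263235 (P2ry12, minus strand), chr3:59210883-59211132 (P2ry13, minus), chr5:122643677-122643926 (P2rx7, plus) and chr5:122707294-122707543 (P2rx4, plus).
P2ry12: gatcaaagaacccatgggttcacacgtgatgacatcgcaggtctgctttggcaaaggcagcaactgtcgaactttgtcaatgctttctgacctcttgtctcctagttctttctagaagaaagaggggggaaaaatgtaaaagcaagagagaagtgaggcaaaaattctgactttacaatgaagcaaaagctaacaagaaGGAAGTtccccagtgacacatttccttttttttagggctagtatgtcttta
P2ry13: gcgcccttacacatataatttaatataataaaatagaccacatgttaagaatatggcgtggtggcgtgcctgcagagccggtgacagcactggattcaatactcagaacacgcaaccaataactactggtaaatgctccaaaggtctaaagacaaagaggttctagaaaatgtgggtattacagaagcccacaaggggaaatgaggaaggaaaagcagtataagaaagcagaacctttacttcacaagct
P2rx7: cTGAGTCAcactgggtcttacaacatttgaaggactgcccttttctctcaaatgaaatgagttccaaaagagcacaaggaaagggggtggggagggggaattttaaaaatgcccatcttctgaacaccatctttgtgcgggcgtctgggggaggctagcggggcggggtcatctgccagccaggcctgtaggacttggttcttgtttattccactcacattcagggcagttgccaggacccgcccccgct
P2rx4: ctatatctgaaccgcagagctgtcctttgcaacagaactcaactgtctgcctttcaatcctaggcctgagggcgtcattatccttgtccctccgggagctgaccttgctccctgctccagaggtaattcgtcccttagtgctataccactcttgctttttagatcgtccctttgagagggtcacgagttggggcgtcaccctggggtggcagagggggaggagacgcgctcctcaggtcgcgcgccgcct
P2ry12 held 1 GGAAGT 51 bases before its start, and P2rx7 held 1 TGANTCA 249 bases before the start shown. Another P2rx7 start, at chr5:122650383, held none of the 3 motifs in its window. P2ry13 and P2rx4 held none of the 3 motifs in this window. Of 32851 promoter windows of the same length, 19.7% held GGAAGT, 6.75% TGANTCA and 2.98% the IRF motif. Of the 10 genes 8 had a promoter entry; P2ry6 and Adora2a did not. Adora1 and Adora3 each held GGAAGT (on the minus strand of the window) and TGANTCA in the window of 1 start, overlapping in Adora1, and Entpd1 and Nt5e held none of the 3.

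The 3 adenosine receptors were low in every group. They lie on chromosome 1 (Adora1, 134199223 to 134235431, minus strand), chromosome 10 (Adora2a, 75316877 to 75334784, plus) and chromosome 3 (Adora3, 105870858 to 105908926, plus). Adora1, which inhibits adenylyl cyclase and is best known from neurons, stood at 5.56, 6.01 and 4.59 CPM in cKO IL and 10.9, 6.91 and 4.57 CPM in WT IL, against 17.4, 9.44 and 11.6 CPM in cKO CL and 11.3, 7.20 and 18.8 CPM in WT CL. Every cKO IL library lay below every cKO CL library, the only 1 of the 10 genes of which this was so, against 35.9% of all tested genes in that comparison. The log2 fold change was -1.25 (standard error 0.72, adjusted p = 0.266, edgeR), close to the median of all genes of -1.33, and -0.73 in WT (standard error 0.71, adjusted p = 0.614). Under a filter of 10 reads in every library, Adora1 was called lower in cKO IL (-1.77, adjusted p = 0.0374, edgeR), where the median of all genes kept was -0.038. Of the 10437 genes kept, 1631 were called lower. The 6 neuronal markers summed to 12.2 to 20.8 CPM in cKO IL and 17.5 to 47.1 CPM in WT IL, against 57.6 to 94.1 CPM in cKO CL and 54.2 to 84.0 CPM in WT CL, and their part in the Adora1 values was not tested. Adora1 shares 1162 exonic bases with Mybph on the opposite strand, which had 0 to 91 reads a library.

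Adora2a, a receptor that raises cyclic AMP, stood at 3.61, 12.3 and 5.20 CPM in cKO IL and 6.99, 5.97 and 10.6 CPM in WT IL, against 7.91, 11.0 and 12.1 CPM in cKO CL and 13.1, 6.15 and 0 CPM in WT CL. The 0 is that of library C, where 3 reads would be 0.880 CPM. Adora3, which inhibits adenylyl cyclase, stood at 10.1, 5.06 and 14.6 CPM in cKO IL and 8.68, 13.4 and 2.76 CPM in WT IL, against 11.9, 9.72 and 13.9 CPM in cKO CL and 3.80, 11.4 and 10.6 CPM in WT CL. All groups overlapped for both genes, and the lowest adjusted p of either in an IL over CL comparison was 0.689 (edgeR). Their fold changes of IL over CL had standard errors of 0.76 to 0.96, and missing the threshold does not show that the groups were alike. Adora3 shares 779 exonic bases with Tmigd3 on the same strand, which had 0 to 169 reads, and how reads of the shared part were divided was not given in the sources used here.

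Of the ectonucleotidases, Entpd1 (chromosome 19, 40612366 to 40741602, plus strand) was abundant and Nt5e (chromosome 9, 88327197 to 88372092, plus strand) low. Entpd1 stood at 344, 213 and 346 CPM in cKO IL and 361, 422 and 204 CPM in WT IL, against 179, 292 and 324 CPM in cKO CL and 163, 246 and 67.8 CPM in WT CL. The hemispheres overlapped in both genotypes, and the lowest value was that of the WT CL library C. IL over CL gave 0.18 in cKO (standard error 0.48, adjusted p = 0.796) and 1.05 in WT (standard error 0.49, unadjusted p = 0.0432, adjusted p = 0.259), and neither passed (edgeR). The cKO value turned to -0.67 with total counts.

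Nt5e stood at 24.7, 46.5 and 10.7 CPM in cKO IL and 7.11, 16.2 and 19.6 CPM in WT IL, against 18.8, 6.15 and 8.10 CPM in cKO CL and 14.9, 16.2 and 41.7 CPM in WT CL. The highest values came from a cKO IL library and from the WT CL library C, and all groups overlapped. IL over CL gave 1.31 in cKO (standard error 0.68, adjusted p = 0.234) and -0.76 in WT (standard error 0.68, adjusted p = 0.579). The difference of 2.07 between these responses (standard error 0.96) was the only interaction of the 10 genes with an unadjusted p under 0.05 (0.0423), and its adjusted p was 1.0 (edgeR). Without the WT IL library A and the WT CL library C the WT value turned to 0.41, and the cKO value passed the test (1.79, adjusted p = 0.0111, edgeR). In that cKO comparison 6042 of 39748 genes passed.

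Counted over the 10 genes, IL over CL was positive for 7 in cKO and 6 in WT, where 31.6% and 43.7% of all tested genes were positive. The median of the 10 was 0.75 in cKO and 0.54 in WT, against -1.33 and -0.31 for all tested genes. That contrast depends on the genes kept. Among the 10437 genes of at least 10 reads in every library, which hold 9 of the 10, the median of all genes was -0.038 in cKO and -0.039 in WT. Members moved as well. In cKO, P2ry6 was then 1.44, Entpd1 -0.25 and Adora1 -1.77, against 1.88, 0.18 and -1.25 in the main fit. Every IL library lay above every CL library for 3 of the 10 in each genotype, which are P2ry6, P2rx4 and P2rx7 in both, against 18.5% of all genes in cKO and 10.3% in WT. Every IL library lay below for 1 of the 10 in cKO (Adora1) and 0 in WT, against 35.9% of all genes in cKO and 6.62% in WT. In WT, edgeR called 0 of the 10, where 0.538% of all genes were called higher and 0.0701% lower, and DESeq2 also called 0 of the 10. An unadjusted p under 0.05 was found for 3 of the 10 (P2ry6, P2ry13 and Entpd1) and for 18.3% of all genes. The cKO and WT comparisons share no library but share the gene filter, the scaling and 1 estimate of the spread, and each genotype comparison uses libraries of both.

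**Figure D4:**
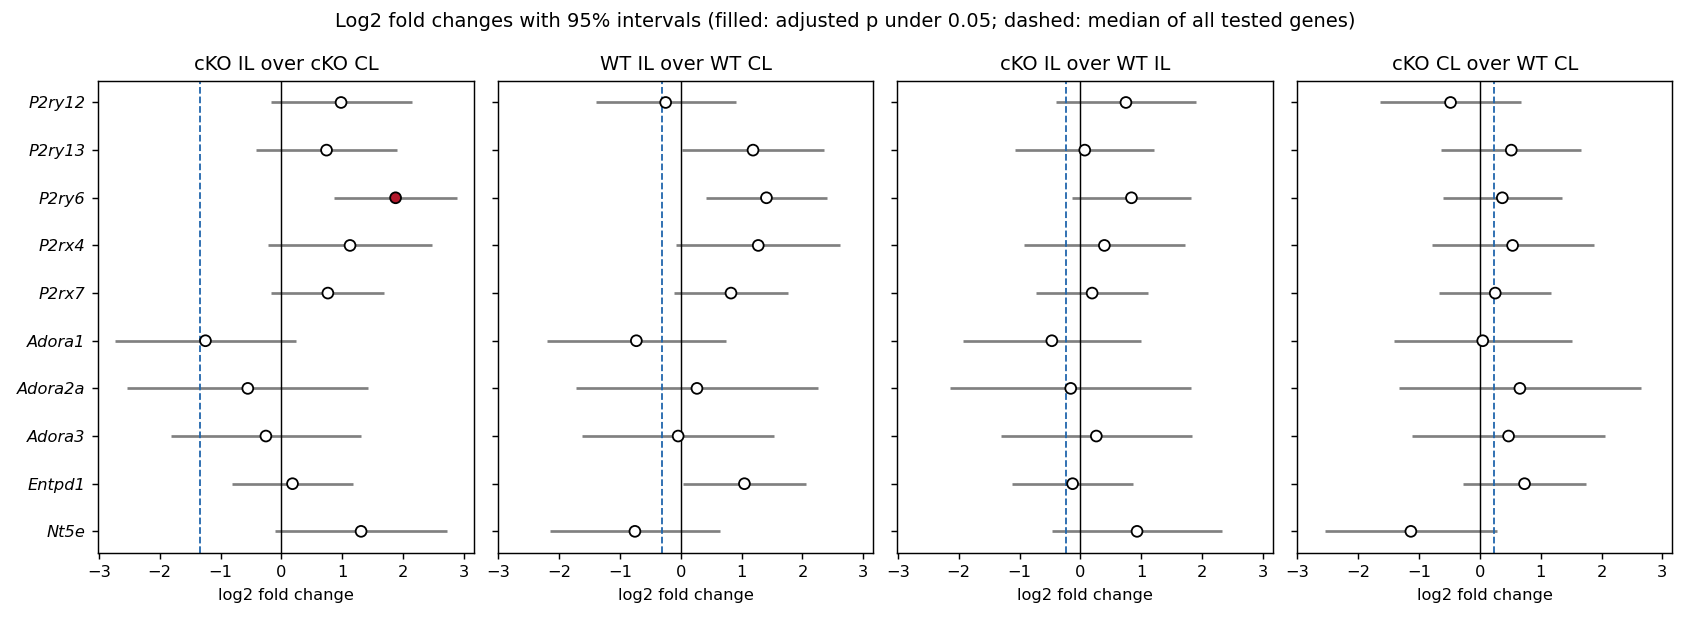
Log2 fold changes of the 10 genes with 95% intervals in cKO IL over cKO CL, WT IL over WT CL, cKO IL over WT IL and cKO CL over WT CL, filled where the adjusted p is under 0.05, with the median of all tested genes dashed. P2ry6 in cKO IL over cKO CL (1.88) is the filled point, and the 2 genotype comparisons have intervals that include 0 for all 10 genes.

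Between the genotypes no gene of the 10 passed the test in either hemisphere, and 0% of all tested genes did (edgeR, adjusted p = 0.997 in IL and 1.0 in CL for all 10). With an unadjusted p under 0.05 there were 0 of the 10 in IL and 0 in CL, against 2.36% and 4.72% of all genes, and DESeq2 called 0 of the 10 in either. The log2 fold change was positive for 7 of the 10 in IL and 8 in CL, against 41.9% and 59.3% of all genes. That contrast too depends on the genes kept. The median of all tested genes was -0.24 in IL and 0.23 in CL. Among genes of at least 10 reads in every library it was -0.00038 and -0.049. In IL, the 3 cKO libraries were all above the 3 WT libraries for 2 of the 10, P2ry6 and P2rx4, and all below for 0, against 4.83% and 4.39% of all genes. P2ry6 gave 0.84 in that comparison (standard error 0.47, 95% interval -0.14 to 1.82) and P2rx4 0.39 (standard error 0.64, 95% interval -0.93 to 1.72). Of the 9 monocyte markers 0 were called in that comparison, but all 9 were positive, with a median of 1.61, and 5 had every cKO library above every WT one. Their part in these values was not tested. The other IL values lay between -0.47, for Adora1, and 0.93, for Nt5e. In CL no gene of the 10 had groups apart, against 9.27% of all genes with every cKO library above and 1.38% with every cKO library below, and values lay between -1.13, for Nt5e, and 0.73, for Entpd1. In the interaction 0 of the 10 were called by edgeR or DESeq2, as were 0% of all genes by edgeR. It was positive for 3 of the 10, against 36.8% of all genes, and 1 of the 10 (Nt5e) had an unadjusted p under 0.05, as had 3.80% of all genes. The median interaction of all tested genes was -0.48, and -0.00089 among genes of at least 10 reads in every library.

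Of 30 further genes of nucleotide and adenosine handling, all of which were tested, 2 were called in any of the 5 comparisons, both higher in cKO IL than in cKO CL (edgeR), where 2.94% of all genes were called higher. Enpp1, an ectoenzyme that splits ATP into AMP and pyrophosphate, stood at 160, 117 and 86.5 CPM in cKO IL and 10.4, 44.5 and 110 CPM in WT IL, against 18.8, 11.6 and 7.42 CPM in cKO CL and 15.0, 10.3 and 33.7 CPM in WT CL. It rose in cKO IL over cKO CL by 3.27 (standard error 0.70, adjusted p = 0.0165). Cd38, an ectoenzyme that consumes NAD, stood at 189, 116 and 61.0 CPM in cKO IL and 4.66, 32.4 and 105 CPM in WT IL, against 8.78, 7.47 and 3.99 CPM in cKO CL and 8.43, 3.45 and 0.293 CPM in WT CL. It rose by 4.18 (standard error 0.91, adjusted p = 0.0182). Both genes ordered the IL libraries of each genotype as the sum of the monocyte markers without Fn1 did, and the part of monocytes in their values was not tested. Both calls were lost without any 1 of the 3 cKO CL libraries (adjusted p of 0.0762 to 0.108, edgeR), and that of Enpp1 also with total counts (2.29, adjusted p = 0.0579).

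The 4 most abundant of the 30 were Slc29a3, Enpp2, Enpp1 and Slc29a1. Slc29a3, a nucleoside transporter of lysosomes, stood at 299, 238 and 338 CPM in cKO IL and 129, 252 and 239 CPM in WT IL, against 85.6, 118 and 159 CPM in cKO CL and 94.6, 92.8 and 57.2 CPM in WT CL. All IL libraries lay above all CL libraries of their genotype (1.27, adjusted p = 0.107, in cKO and 1.34, adjusted p = 0.135, in WT, edgeR), which did not pass. Enpp2, which makes lysophosphatidic acid, ranged from 2.71 to 629 CPM, and Slc29a1, a nucleoside transporter of the cell surface, from 34.8 to 77.0 CPM. The median of the 30 was -0.34 in cKO IL over cKO CL with 11 positive, where 31.6% of all genes were, and 0.09 in WT IL over WT CL with 17 positive, where 43.7% were. The lowest adjusted p of the 30 in WT was 0.0579 (edgeR).

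Among 10335 genes of at least 10 CPM, those whose log2 CPM followed P2ry12 most closely over the 12 libraries were Cst3, the protease inhibitor cystatin C (Pearson r 0.90), Inpp4b (0.85) and Arhgap5 (0.83). Without the smallest library these were 0.93, 0.85 and 0.91. For P2rx4 they were Agpat4, Eif1ad and Slc35b1, at 0.99 each, and at 0.95, 0.94 and 0.95 without that library. The 12 points share group, depth and scaling, so these values are descriptions.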

How the data were processed

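The authors prepared stranded total RNA libraries from sorted cells, removed adapters, low-quality reads and ribosomal and mitochondrial sequence, aligned to mm10 with STAR 2.5.3a in Partek 8.0 and deposited raw counts per gene, which are whole numbers with no scaling. The annotation release and the strand setting are not given in the sources used here. Positions and exon lengths came from GENCODE vM21 (GRCm38), in which 53706 of the 53801 IDs were found.

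Genes were kept by filterByExpr on the 4 groups (35674 genes), scaled by TMM (factors 0.618 to 1.64) and tested two-sided with edgeR 4.0.16 (R 4.3.3, quasi-likelihood test) in 1 fit of 12 libraries with a mean per group and no block. The threshold was 0.05 on the Benjamini-Hochberg adjusted p across all tested genes. The comparisons were the genotypes within each hemisphere, the hemispheres within each genotype, their interaction, and any difference among the 4 groups. Marker sums add the CPM of a list. Likeness used log2 CPM with a prior count of 2.

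The libraries of a group are taken as separate animals, and no source ties the column numbers to animals or to the replicate numbers of the labels, so p-values measure the spread between these libraries. The authors sorted cells from both hemispheres of WT and cKO brains and state 3 independent animals. IL and CL libraries of a genotype may thus come from the same mice, and the main fit treats them as independent. Named were the 10 genes, of 30 further purinergic genes those called and the 4 most abundant, genes overlapping a member and the 3 genes most like P2ry12 and P2rx4. The 9 monocyte markers were also named, and Fn1 was set apart after its values were seen. The floxed gene is not reported here. The members and lists were chosen with earlier results of these data known. Alternatives were RLE, total counts, no filter, at least 10 counts in every library, DESeq2 1.42.0, the 6 libraries of a comparison, thinning to the smallest total, a block on the column number, and leaving out each library, plus 2 libraries together, a setting added after seeing the data. The test was checked on simulated counts.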

Additional observations from a re-analysis of the deposited data

How the results depend on the processing

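P2ry6 was the gene of the 10 called in cKO IL over cKO CL. The number of the 10 called there was 0 with RLE, 0 with total counts, 0 with thinned libraries, 2 with at least 10 reads in every library (P2ry6 and Adora1; Adora2a was not tested), 5 with the 6 cKO libraries alone (P2ry12, P2ry6, P2rx4, P2rx7 and Nt5e), 4 without the WT IL library A and the WT CL library C (P2ry12, P2ry6, P2rx4 and Nt5e), and 0 to 3 with each library left out, 3 without the WT CL library C. P2ry6 then had an adjusted p of 0.0520 with RLE, 0.108 with total counts and 0.0516 with thinning (edgeR). Of all genes, 2885 of 10437 were called there with at least 10 reads in every library and 11159 of 32414 with the 6 cKO libraries alone. It was 5085 of 39716 without the WT CL library C, and 6042 of 39748 without the WT IL library A and the WT CL library C. In WT IL over WT CL the number of the 10 called was 1 (P2ry6) without those 2 libraries, where 2334 of 39748 genes were called. Among the 4 groups the number of the 10 was 0 with total counts, 2 with no filter (P2ry6 and P2rx4), 2 without those 2 libraries, and 0 to 2 with each library left out. Of all genes, 4647 of 49642 were called among the 4 groups with no filter, and 5826 of 39748 without those 2 libraries. The causes were not tested, other than that the fits differ in the genes or libraries they hold. In the other comparisons 0 of the 10 were called under all alternatives run.

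With the replicate block on the column number, 0 of the 10 were called in cKO IL over cKO CL (P2ry6 1.91, adjusted p = 0.0694, edgeR), with 787 of all genes called against 1233 without the block, and 1 against 217 in WT. Same-numbered libraries had correlations of their deviations of -0.130 to 0.209, and no source used here says whether a number marks an animal, so the numbers were not taken to pair the samples. The genotype comparisons could not be fitted with the block, which lies within genotype.

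Log2 fold changes of uncalled genes changed sign in these cases. In cKO IL over WT IL, P2ry13 was -0.039 with RLE, -0.36 with total counts, -0.12 with at least 10 reads, -0.039 with DESeq2, -0.019 with 6 libraries and -0.11 with thinning; P2rx7 was -0.18 with total counts and -0.092 with thinning, Adora3 -0.16 with total counts, and Entpd1 0.057 with no filter. In cKO CL over WT CL, Adora1 was -0.077 with RLE, -0.013 with total counts and -0.069 with DESeq2. In WT IL over WT CL, Adora2a was -0.16 with total counts, and with no filter P2ry12 was 0.070 and Adora3 0.25. In cKO IL over cKO CL, Entpd1 was -0.0035 with RLE, -0.67 with total counts, -0.25 with at least 10 reads, -0.0035 with DESeq2 and -0.21 with thinning; P2ry13 was -0.13 and P2rx7 -0.10 with total counts, and Adora3 0.15 with no filter and 0.070 with 6 libraries. In the interaction, P2rx4 was 0.063 and P2rx7 0.10 with no filter, and Adora3 0.11 with thinning. Without the WT IL library A and the WT CL library C, cKO IL over WT IL was 0.045 for Adora1 and 0.085 for Entpd1, cKO CL over WT CL -0.062 for P2rx4 and -0.063 for P2rx7, WT IL over WT CL 0.60 for P2ry12, -0.026 for Adora2a, 0.32 for Adora3 and 0.41 for Nt5e, cKO IL over cKO CL 0.14 for Adora3, and the interaction 0.48 for P2rx4 and 0.39 for P2rx7.

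With each library left out, the sign also changed within these ranges. In cKO IL over WT IL they were -0.28 to 0.76 for P2ry13, -0.83 to 0.15 for Adora2a, -0.15 to 0.80 for Adora3 and -0.38 to 0.10 for Entpd1. In cKO CL over WT CL they were -0.062 to 0.99 for P2rx4, -0.062 to 0.52 for P2rx7 and -0.22 to 0.35 for Adora1. In WT IL over WT CL they were -0.87 to 0.21 for P2ry12, -0.14 to 1.52 for Adora2a, -0.57 to 0.38 for Adora3 and -1.03 to 0.067 for Nt5e. They were -0.63 to 0.14 for Adora3 in cKO IL over cKO CL. In the interaction they were -0.81 to 0.23 for P2ry13, -0.47 to 0.62 for P2rx4, -0.21 to 0.43 for P2rx7 and -0.63 to 0.32 for Adora3. 

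Counts over all genes moved more. In cKO IL over cKO CL, 1050 were called higher and 183 lower, against 629 and 224 with RLE, 301 and 1127 with total counts, 2365 and 196 with no filter, 1254 and 1631 with at least 10 reads, 1900 and 4346 with DESeq2, 6175 and 4984 with 6 libraries, 650 and 479 with thinning, and 0 to 5085 in all with each library left out. In WT IL over WT CL, 192 and 25 became 66 and 15, 24 and 18, 1155 and 402, 406 and 663, 1105 and 2185, 0 and 0, and 2 and 0 in the same order, and 5 to 1381 in all with each library left out. Among the 4 groups, 2396 became 4647 with no filter and 6305 with DESeq2. Without the WT IL library A and the WT CL library C the counts were 4891 and 1151 in cKO, 1865 and 469 in WT and 5826 among the 4 groups. Between genotypes, 0 in IL and 0 in CL became 9 and 22 with no filter, 4 and 15 with DESeq2 and 5 and 59 without those 2 libraries. With each library left out the highest counts were 1 in IL and 32 in CL, that of CL without the WT CL library B. In the interaction, 0 became 17 with no filter, 4 with DESeq2, 20 without those 2 libraries and up to 3 with each library left out. The smallest library, WT CL C, held 2091512 reads, of which 3 are 0.880 CPM.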
